A study of Haemulon flavolineatum and Haemulon macrostomum and Haemulon carbonarium with 36 samples.

Results

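The isogroups described here are those of the liver transcriptome whose protein name identified a translation initiation factor, elongation factor 1 or 2, a ribosomal protein or a tRNA ligase, and that held 10 or more counts in total. An isogroup is a cluster of assembled transcripts that are near-identical, and it is the feature in which the counts were made. The rule matched 72 isogroup names, of which 16 had no row in the counts, including all 7 whose best match was a bacterial protein, and 10 had fewer than 10 counts. The remaining 46 isogroups were the members, of 58532 in the whole table, and 29 of them had counts high enough to be tested. Names came from the annotation of the assembly or from the study's own list of isogroups that it called between species. That list was chosen on these same fish, so the calls of the 14 tested members that stand in it are not independent evidence of a difference. The other 15 are also counted separately. They are the members that the study did not list, so their calls are not free of that choice either.

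The livers came from wild grunts of 3 species with overlapping ranges on Caribbean reefs: 8 Haemulon carbonarium, 17 H. flavolineatum and 11 H. macrostomum. The study reports that most H. macrostomum were taken on outer reefs, with stronger currents and waves than the other species met. Species and place of collection therefore cannot be told apart in the contrasts with H. macrostomum. No fish received a treatment, the labels give no age, no gonadal development was seen and sex was not known. Each fish gave 1 TagSeq library, in which an mRNA molecule yields 1 short tag near its 3′ end, and all tags were mapped to the assembled transcriptome of H. macrostomum. How well a tag of another species matches that reference and how much RNA the liver holds therefore cannot be told apart for a single isogroup. In addition, 6 H. flavolineatum (fish 3, 10, 12, 13, 14 and 18) had summed vitellogenin, the egg yolk precursor made by the liver of females, between 32760 and 70270 CPM (counts scaled to a common library size), against 11.2 to 1620 CPM in the other 11. The labels do not give these 6 as a group, so they are compared with the others as a description only.

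Translation of an mRNA starts when initiation factor 2 (eIF2) brings the initiator tRNA to the small ribosomal subunit, to which eIF3, a complex of many subunits, is bound. The factor eIF4G is the scaffold that joins the mRNA cap-binding protein eIF4E to eIF3, and the 4E-binding proteins (4E-BP) compete with eIF4G for eIF4E and so hold initiation back. Elongation factors then deliver aminoacyl-tRNAs, which tRNA ligases charge, to a ribosome built of RNA and many small, abundant proteins. Mitochondria have a ribosome of their own, whose proteins are encoded in the nucleus. The liver exports large amounts of plasma protein and, in females forming eggs, of vitellogenin.

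Total counts per fish ranged from 722995 to 1930321 in H. carbonarium, from 578011 to 2594002 in H. flavolineatum and from 1149810 to 3252882 in H. macrostomum. The members took between 0.294 and 0.558% of a library's counts in H. carbonarium (median 0.437%), between 0.189 and 0.720% in H. flavolineatum (median 0.492%) and between 0.515 and 0.851% in H. macrostomum (median 0.621%). All 19 liver markers were detected in each species, with summed levels of 28290 to 54100, 9122 to 39110 and 28590 to 55250 CPM in the same order. Apolipoprotein A-I, isogroup2202, and hemopexin, isogroup1477, made most of this sum. They held 1438020 and 480435 counts over all fish, against 27477 for the next. Markers of other cells differed with species too. The 12 exocrine pancreas markers summed to 9142 to 57790 CPM in H. carbonarium, 1832 to 16050 CPM in H. flavolineatum and 377 to 8426 CPM in H. macrostomum, where 1 was at 0 in every fish. The 26 lymphocyte and blood cell markers with a row summed to 278 to 650, 318 to 1209 and 778 to 1498 CPM, with 2, 0 and 3 of them at 0. A single isogroup of CD48, isogroup3357, weighed most in that sum, with 25634 counts over all fish against 6320 for the next. The part of these markers in the differences given below was not tested. In bulk liver fewer cells of a type and less RNA per cell cannot be told apart. Fish 12 of H. flavolineatum stood apart: 10 isogroups took 68.2% of its counts, and it had the lowest level of its species for 18 of the 29 tested members.

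Most members did not pass the test in any contrast between species. At an adjusted p under 0.01 in edgeR's quasi-likelihood test, 3 of 29 differed between H. carbonarium and H. flavolineatum (10.3%, against 14.4% of all 8598 isogroups tested), 5 of 29 between H. carbonarium and H. macrostomum (17.2%, against 13.5%) and 9 of 29 between H. flavolineatum and H. macrostomum (31.0%, against 26.0%). Over all 3 species at once, 11 of 29 differed (37.9%, against 32.6%). These shares are partly fixed by the choice of members, since the study's list holds isogroups that it called on these fish. Among the 15 tested members outside the list, the calls numbered 2, 0, 2 and 2 in the same order (13.3, 0, 13.3 and 13.3%), and among the 14 in it 1, 5, 7 and 9. The 15 are those that the study did not list on these fish, so the same choice acts on their share. It also sets the roles: the list holds all tested eIF2 isogroups and the tested elongation factor, but none of the tested ribosomal proteins.

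All 5 calls between H. carbonarium and H. macrostomum were lower in H. carbonarium, where 7.41% of all isogroups were called in that direction and 6.08% in the other, and all 5 were in the study's list. Between H. flavolineatum and H. macrostomum, 7 of the 9 were lower in H. flavolineatum (14.4% of all isogroups) and 2 were higher (11.6%). Of these, 6 of the 7 lower and 1 of the 2 higher were in the list. The median log2 fold change of the 29 was −0.38 for H. carbonarium against H. macrostomum, with 7 positive, and −0.39 for H. flavolineatum against H. macrostomum, with 6 positive, while the medians over all isogroups tested were 0.001 and 0.04, with 4303 and 4457 of 8598 positive. For the 15 members outside the list the medians were −0.33 and −0.20, and for the 14 in it −0.49 and −0.66. These contrasts share the H. macrostomum fish, most of which came from outer reefs, and H. macrostomum is also the species of the mapping reference. Between H. carbonarium and H. flavolineatum the median was 0.07 with 15 of 29 positive, and 1 member was called higher (7.85% of all isogroups) and 2 lower (6.55%).

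**Figure D1:**
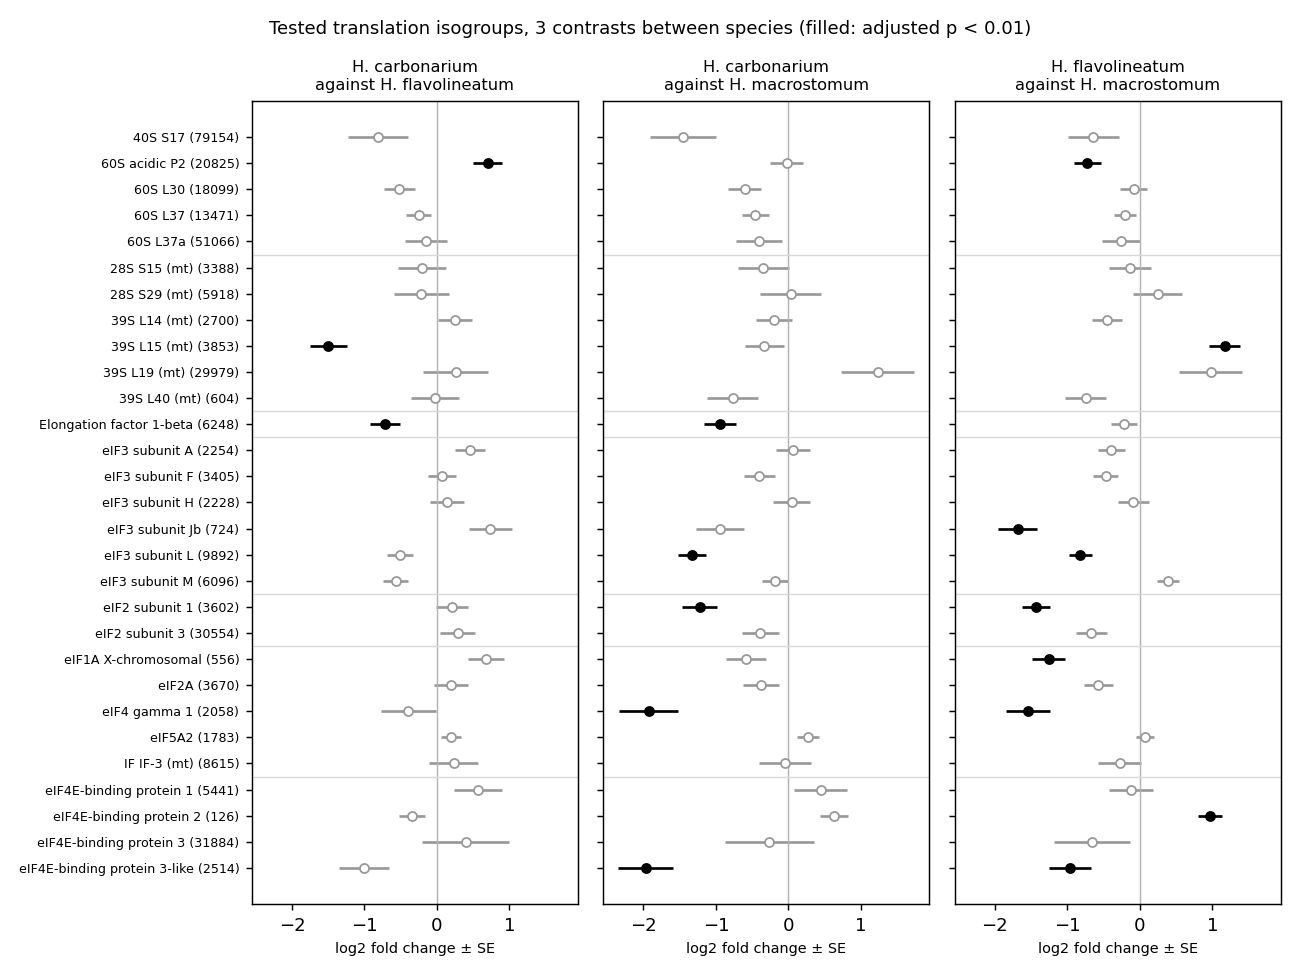
Log2 fold change ± standard error of the 29 tested members (rows, with isogroup numbers in brackets) in the 3 contrasts between species (panels); points right of 0 are higher in the first species of the panel title, filled points have an adjusted p under 0.01 and lines separate the roles. Filled points number 3, 5 and 9 from left to right, and those of the middle panel all lie left of 0.

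Among the initiation factors that place the first tRNA, eIF2 subunit 1, the alpha subunit whose phosphorylation slows initiation, had its highest level in H. macrostomum. The main isogroup of this protein, isogroup3602, ranged from 38.2 to 97.7 CPM in H. macrostomum (median 55.2), from 11.5 to 41.4 CPM in H. carbonarium (median 25.5) and from 5.59 to 38.3 CPM in H. flavolineatum (median 22.7). Of the 11 H. macrostomum, 9 lay above every H. carbonarium and 10 above every H. flavolineatum. Against H. macrostomum, the log2 fold change was −1.23 ± 0.25 (SE) for H. carbonarium (adjusted p = 0.000227, edgeR) and −1.43 ± 0.20 for H. flavolineatum (adjusted p = 1.71e-07), and it was 0.20 ± 0.22 between H. carbonarium and H. flavolineatum (adjusted p = 0.56). The same name belonged to 3 further isogroups with few counts, whose totals did not all follow it. Isogroup60156 had 17 counts in the 8 H. carbonarium, 70 in the 17 H. flavolineatum and 113 in the 11 H. macrostomum. Isogroup31435 had 62, 33 and 51 counts, which per total count was 1.99 times as many in H. carbonarium as in H. macrostomum (95% interval 1.35 to 2.95, exact, counting error only). Isogroup31587 had 4, 1 and 10 counts. Tested without the filter on low counts, isogroup60156 was lower in H. carbonarium than in H. macrostomum (log2 fold change −2.06, adjusted p = 0.0019), and isogroup31435 gave 1.84 for H. carbonarium against H. flavolineatum (adjusted p = 0.00399). Tags may match several such isogroups, since up to 5 matches per tag were searched. With the isogroups of 1 protein summed, eIF2 subunit 1 was lower in H. carbonarium (log2 fold change −1.09, adjusted p = 0.00102) and H. flavolineatum (−1.39, adjusted p = 4.4e-07) than in H. macrostomum. That sum mostly repeats isogroup3602, which held 2059 counts, against 200, 146 and 15 in isogroup60156, isogroup31435 and isogroup31587. All but isogroup31587 stand in the study's list, so their differences are partly fixed by the choice of members.

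A further eIF2 protein, subunit 3, which binds the initiator tRNA and GTP, was measured in isogroup30554. Its levels ranged from 8.85 to 22.0 CPM in H. carbonarium (median 15.6), from 1.86 to 20.4 CPM in H. flavolineatum (median 12.5) and from 7.27 to 34.7 CPM in H. macrostomum (median 18.8). The species overlapped, and the difference between H. flavolineatum and H. macrostomum, −0.67 ± 0.21 on the log2 scale, missed the threshold (adjusted p = 0.012) but passed it when a second isogroup of the name, isogroup58738, with 3, 6 and 30 counts in the 3 species, was added (−0.75, adjusted p = 0.00438). Isogroup30554 and isogroup58738 stand in the study's list as well.

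The tested subunits of eIF3 did not share 1 pattern over the species. Of the 6 tested isogroups of this complex, 5 stand in the study's list, so their differences are partly fixed by the choice of members. Subunit L, isogroup9892, was at 73.8 to 112.6 CPM in H. carbonarium (median 92.3), 37.3 to 178 CPM in H. flavolineatum (median 139) and 159 to 336 CPM in H. macrostomum (median 213). All 11 H. macrostomum lay above every H. carbonarium, and 10 of them above every H. flavolineatum. Against H. macrostomum, the log2 fold change was −1.33 ± 0.20 for H. carbonarium (adjusted p = 2.78e-06) and −0.82 ± 0.16 for H. flavolineatum (adjusted p = 5.67e-05). Of the 17 H. flavolineatum, 15 lay above every H. carbonarium, and the log2 fold change of H. carbonarium against H. flavolineatum, −0.51 ± 0.18, missed the threshold (adjusted p = 0.0386) with fish 12 of H. flavolineatum included and passed it without that fish (−0.57, adjusted p = 0.00365).

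Subunit Jb of eIF3, which in yeast and mammals is loosely held to the rest of the complex, gave another order of the species. Isogroup724 was at 52.3 to 573 CPM in H. macrostomum (median 81.1), 30.2 to 102 CPM in H. carbonarium (median 62.2) and 20.5 to 61.5 CPM in H. flavolineatum (median 37.8). A single fish, H. macrostomum 6, gave the value of 573 CPM, and the other 10 of its species did not exceed 106.4 CPM. The log2 fold change between H. flavolineatum and H. macrostomum was −1.68 ± 0.27 (adjusted p = 3.42e-06) and −1.04 without that fish, still past the threshold. H. carbonarium passed against neither other species with all fish included, with log2 fold changes of 0.73 ± 0.30 against H. flavolineatum (adjusted p = 0.0691) and −0.95 ± 0.33 against H. macrostomum (adjusted p = 0.0361). Without H. macrostomum 6 the former was 0.79 and passed (adjusted p = 0.000565), and the latter was −0.25 (adjusted p = 0.404).

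The main isogroup of subunit M, isogroup6096, had the reverse pattern, with its highest levels in H. flavolineatum. Its range was 72.7 to 183 CPM there (median 136), 72.2 to 104 CPM in H. carbonarium (median 93.9) and 60.5 to 154 CPM in H. macrostomum (median 93.3). It differed over the 3 species (adjusted p = 0.00864) but in no single contrast, the closest being −0.57 ± 0.17 for H. carbonarium against H. flavolineatum (adjusted p = 0.012), which passed without H. flavolineatum fish 12 (−0.61, adjusted p = 0.00431). A second isogroup of subunit M, isogroup12773, had 12, 8 and 33 counts in H. carbonarium, H. flavolineatum and H. macrostomum. The remaining tested subunits, A, F and H, passed in no contrast. Subunit H, isogroup2228, had the highest mean of the group and overlapping ranges of 110 to 365, 67.1 to 344 and 132 to 397 CPM in the 3 species, with a largest log2 difference of 0.14 ± 0.24 (adjusted p = 0.727). Subunit C, isogroup77030, had 19 counts in all 36 fish.

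The scaffold protein eIF4G 1 and the start codon factor eIF1A were also highest in H. macrostomum. For eIF4G 1, isogroup2058, the levels ran from 3.08 to 58.6 CPM in H. macrostomum (median 16.1), from 2.65 to 7.67 CPM in H. carbonarium (median 5.13) and from 1.49 to 13.3 CPM in H. flavolineatum (median 6.66). Against H. macrostomum, H. carbonarium gave a log2 fold change of −1.93 ± 0.40 (adjusted p = 0.000369) and H. flavolineatum one of −1.54 ± 0.30 (adjusted p = 9.53e-05). Here 8 of the 11 H. macrostomum lay above every H. carbonarium and 7 above every H. flavolineatum, while fish 1, 2, 4 and 10 of H. macrostomum fell within the range of H. flavolineatum. For eIF1A, isogroup556, named after the X-chromosomal human gene, the levels ran from 16.5 to 66.7 CPM in H. macrostomum (median 27.7), from 10.3 to 39.7 CPM in H. carbonarium (median 17.7) and from 3.73 to 22.95 CPM in H. flavolineatum (median 12). H. flavolineatum was below H. macrostomum by −1.26 ± 0.22 on the log2 scale (adjusted p = 1.86e-05), and H. carbonarium lay between them and passed against neither (adjusted p = 0.0458 and 0.119). Fish 6 of H. macrostomum had the highest value of its species for eIF4G 1, eIF1A and eIF3 subunit Jb alike, and for 10 of the 29 tested members in all. Without it the difference of H. flavolineatum from H. macrostomum was −1.18 for eIF4G 1 and −1.07 for eIF1A, both past the threshold.

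Other initiation factors did not pass in any contrast. The factor with the highest mean among them, eIF5A2, isogroup1783, which carries the modified lysine hypusine and helps the ribosome past difficult peptide bonds, was at 71.2 to 105 CPM in H. carbonarium, 54.9 to 105 CPM in H. flavolineatum and 59.96 to 81.6 CPM in H. macrostomum. Factor eIF2A and the mitochondrial factor IF-3 did not exceed 25.2 and 15.9 CPM in any fish. The cap-binding protein eIF4E type 2, isogroup2966, did not pass the filter on low counts, with 53 counts in H. macrostomum, 66 in H. flavolineatum and 113 in H. carbonarium, and 79 of the 113 came from H. carbonarium fish 4 alone. Factor eIF2D, isogroup9957, had 3, 10 and 4 counts.

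**Figure D2:**
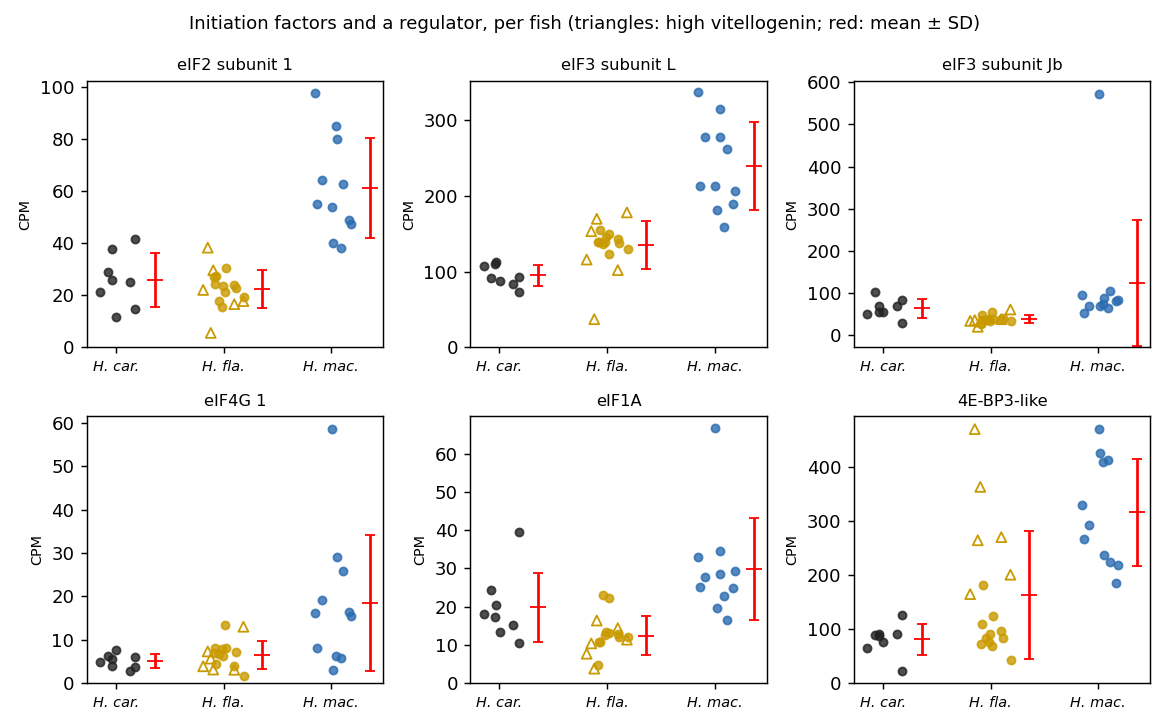
Levels (CPM, linear axes) of 5 initiation factors and of the regulator 4E-BP3-like in each of the 36 fish, by species (x axis); points are fish, open triangles the 6 H. flavolineatum with high vitellogenin, and red bars the mean ± SD. The 11 H. macrostomum of eIF3 subunit L and of 4E-BP3-like lie above all 8 H. carbonarium, and 1 H. macrostomum at 573 CPM stands far above the others for eIF3 subunit Jb.

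The regulators that bind eIF4E differed in opposite directions. The 4E-BP3-like isogroup2514 was highest in H. macrostomum, at 186 to 472 CPM (median 294), against 21.4 to 126 CPM in H. carbonarium (median 88.0) and 43.3 to 471 CPM in H. flavolineatum (median 108). All H. macrostomum lay above all H. carbonarium, which was lower by −1.97 ± 0.38 on the log2 scale (adjusted p = 0.000128). H. flavolineatum spanned both other species, and its difference from H. macrostomum was −0.96 ± 0.29 (adjusted p = 0.00771). The wide span of H. flavolineatum went with vitellogenin: without the 6 fish with high vitellogenin the difference from H. macrostomum was −1.78 (adjusted p = 3.3e-07), and that from H. carbonarium shrank from −1.01 ± 0.34 (adjusted p = 0.0293) for H. carbonarium against H. flavolineatum to −0.17 (adjusted p = 0.699). The difference of all H. flavolineatum from H. macrostomum lay near the threshold, and leaving out single fish gave an adjusted p of up to 0.0175.

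In contrast, 4E-BP2, isogroup126, was lowest in H. macrostomum. Its levels were 20.4 to 50.04 CPM there (median 38.3), 39.3 to 81.1 CPM in H. carbonarium (median 62.2) and 38.7 to 120 CPM in H. flavolineatum (median 76.3). Of the 17 H. flavolineatum, 16 lay above every H. macrostomum, with a log2 fold change of 0.97 ± 0.17 (adjusted p = 1.13e-05). H. carbonarium against H. macrostomum gave 0.63 ± 0.19, just short of the threshold (adjusted p = 0.0151), and H. carbonarium against H. flavolineatum −0.34 ± 0.18 (adjusted p = 0.184). The isogroups named 4E-BP1, isogroup5441, and 4E-BP3, isogroup31884, passed in no contrast, with ranges over all fish of 3.49 to 74.8 and 0 to 29.8 CPM. The kinase that phosphorylates eIF2 alpha under stress of the endoplasmic reticulum, eIF2-alpha kinase 3, was present only in 2 sparse isogroups. Isogroup49425 had 5, 13 and 3 counts in H. carbonarium, H. flavolineatum and H. macrostomum, and isogroup66338 had 6, 4 and 1.

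Elongation factor 1-beta, isogroup6248, which recharges the tRNA-delivering factor with GTP, was lowest in H. carbonarium. Its levels were 463 to 879 CPM in H. carbonarium (median 802), 386 to 1845 CPM in H. flavolineatum (median 1158) and 930 to 1908 CPM in H. macrostomum (median 1528). All 11 H. macrostomum and 13 of the 17 H. flavolineatum lay above the highest H. carbonarium, and the only fish below the lowest was H. flavolineatum 12. The log2 fold change was −0.94 ± 0.22 for H. carbonarium against H. macrostomum (adjusted p = 0.00157) and −0.72 ± 0.21 for H. carbonarium against H. flavolineatum (adjusted p = 0.00866). The latter stood so close to the threshold that 34 of 46 alternative analyses put it on the other side, with adjusted p-values from 0.00124 to 0.0385 over all of them and no change of direction. H. flavolineatum and H. macrostomum differed by −0.22 ± 0.18 (adjusted p = 0.353).

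All 5 cytosolic ribosomal protein isogroups were tested, and only the 60S acidic protein P2, part of the stalk that recruits elongation factors, passed. Isogroup20825 was lowest in H. flavolineatum, at 284 to 779 CPM (median 546), against 544 to 1618 CPM in H. carbonarium (median 692) and 631 to 1364 CPM in H. macrostomum (median 802). Below the lowest H. carbonarium were 8 of the 17 H. flavolineatum, and above the highest H. flavolineatum were 3 of the 8 H. carbonarium and 6 of the 11 H. macrostomum. H. flavolineatum against H. macrostomum gave −0.73 ± 0.18 on the log2 scale (adjusted p = 0.00172) and H. carbonarium against H. flavolineatum 0.70 ± 0.20 (adjusted p = 0.00881). The latter fell to 0.52 (adjusted p = 0.0497) without H. carbonarium fish 4, which had the value of 1618 CPM. H. carbonarium and H. macrostomum had means of 816 ± 352 (SD, n = 8) and 830 ± 200 CPM (SD, n = 11), and their difference did not pass (adjusted p = 0.954).

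The other 4 cytosolic ribosomal proteins passed in no contrast. The one with the highest mean was 60S L30, isogroup18099, at 426 to 1080 CPM in H. carbonarium (median 653), 308 to 1665 CPM in H. flavolineatum (median 1017) and 537 to 1595 CPM in H. macrostomum (median 1097), where H. carbonarium against H. macrostomum gave −0.61 ± 0.23 (adjusted p = 0.0502). The 40S protein S17, isogroup79154, chosen for mention after its values were seen, was almost undetected in some fish. It was at 1.18 and 3.14 CPM in fish 4 and 5 of H. carbonarium and at 39.01 to 95.4 CPM in the other 6, at 33.5 to 206 CPM in H. flavolineatum and at 13.1 to 208 CPM in H. macrostomum. Its difference between H. carbonarium and H. macrostomum was −1.46 ± 0.45 (adjusted p = 0.0161). It passed in 5 of 46 alternative analyses, 1 of them a looser threshold of 0.05. In the same fish 4 and 5 the 60S protein L37a, isogroup51066, was at 1224 and 949 CPM, above the 199.5 to 531 CPM of the other 6 H. carbonarium. The fish lowest for S17 were thus the highest for L37a.

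Summed over the 5 cytosolic ribosomal proteins, levels ranged from 2187 to 3908 CPM in H. carbonarium (median 2592), from 1748 to 4099 CPM in H. flavolineatum (median 2741) and from 2640 to 4445 CPM in H. macrostomum (median 3516). Within H. flavolineatum, fish with a high sum also had a high elongation factor 1-beta (Pearson's r = 0.779, permutation p = 9e-05, adjusted over the 3 species 0.00027; Spearman's rho = 0.775, permutation p = 0.00034, adjusted 0.001; n = 17). Within H. macrostomum the same held (r = 0.807, permutation p = 0.0031, adjusted 0.0047; rho = 0.791, permutation p = 0.0055, adjusted 0.0082; n = 11). Pearson's r was computed on the log2 of both levels, and without the 2 fish farthest from the median log2 sum it was 0.790 and 0.757. No such relation was seen in the 8 H. carbonarium (r = 0.007, permutation p = 0.99, and rho = −0.262, permutation p = 0.54), and r was −0.355 without the 2 farthest. Whether the species differ in this relation was not tested. The 2 measures come from the same library, and the share of counts in the top 10 isogroups varied between 30.3 and 68.2% over the 36 libraries. The part of that share in the relation was not tested.

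**Figure D3:**
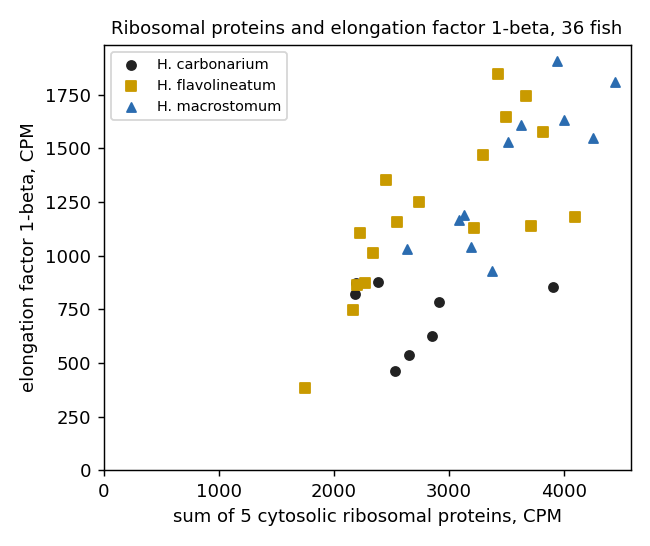
Level of elongation factor 1-beta (y axis, CPM) against the sum of the 5 cytosolic ribosomal proteins (x axis, CPM) in each of the 36 fish, with species by colour and marker. The points of H. flavolineatum and H. macrostomum rise together. The 8 H. carbonarium lie at 463 to 879 CPM of elongation factor 1-beta over sums of 2187 to 3908 CPM, and whether the species differ was not tested.

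The mitochondrial ribosomal proteins were sparse, and 1 of the 6 tested passed. The large-subunit protein L15, isogroup3853, was highest in H. flavolineatum, at 1.86 to 17.4 CPM (median 13.1), against 2.21 to 6.28 CPM in H. carbonarium (median 4.40) and 3.43 to 9.07 CPM in H. macrostomum (median 4.88). Of the 17 H. flavolineatum, 15 lay above every H. carbonarium and 14 above every H. macrostomum, and fish 12 was the lowest. On the log2 scale H. carbonarium differed from H. flavolineatum by −1.50 ± 0.25 (adjusted p = 1.78e-05), while H. flavolineatum against H. macrostomum gave 1.17 ± 0.21 (adjusted p = 2.82e-05), and it was −0.33 ± 0.27 between H. carbonarium and H. macrostomum (adjusted p = 0.42). L15 was not in the study's list, and both of its calls held in all 46 alternative analyses.

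Protein L19 of the same subunit, isogroup29979, passed in no contrast. It was at 0 to 11.5 CPM in H. carbonarium (median 5.95), 0.888 to 9.82 CPM in H. flavolineatum (median 3.48) and 0 to 4.57 CPM in H. macrostomum (median 2.84), from 60, 110 and 41 counts in all. Against H. macrostomum, H. carbonarium gave a log2 fold change of 1.24 ± 0.50 (adjusted p = 0.0717) and H. flavolineatum one of 0.98 ± 0.44 (adjusted p = 0.0739). The species overlapped. L14, isogroup2700, the member of this role with the highest mean over all fish, was at 1.92 to 16.2, 4.86 to 17.8 and 8.09 to 19.6 CPM in the 3 species and did not pass either. Neither did S15, S29 and an isogroup that one protein database named L40 and another gave a different protein name. Of the untested ones, L22, isogroup8189, had 16, 40 and 61 counts in H. carbonarium, H. flavolineatum and H. macrostomum, 0.430 times as many per total count in H. carbonarium as in H. macrostomum (95% interval 0.231 to 0.755, counting error only), and L3, L30 and L54 had 202, 57 and 138 counts over all fish.

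**Figure D4:**
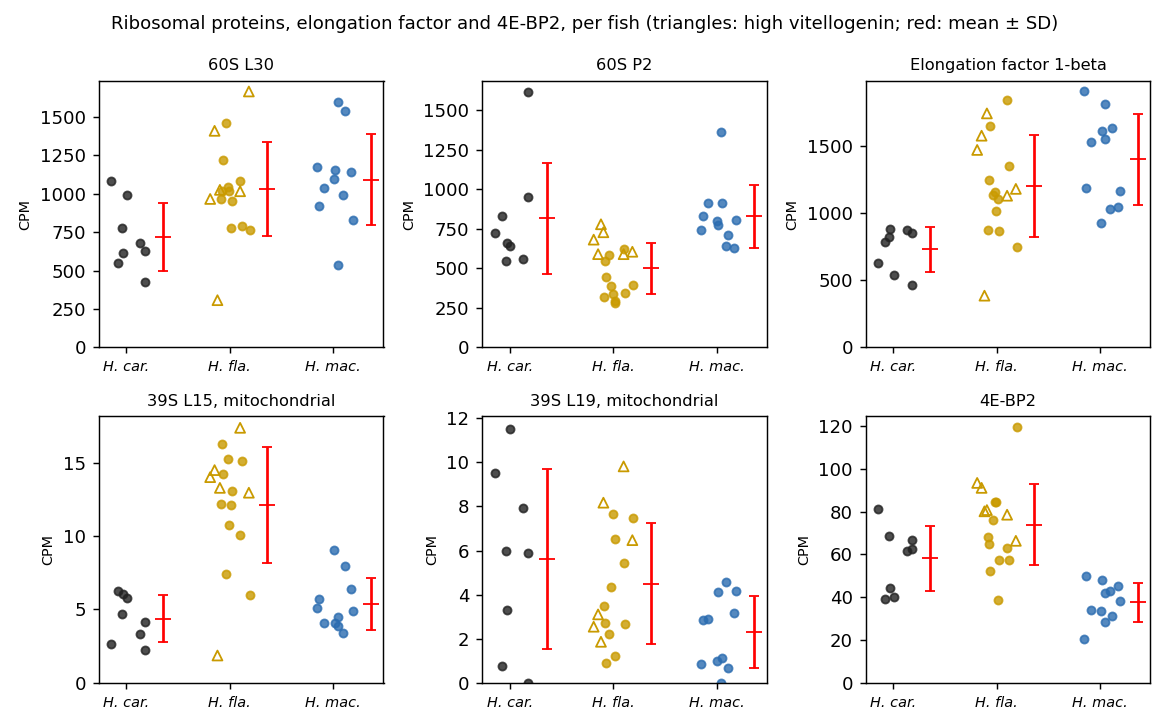
Levels (CPM, linear axes) of 2 cytosolic ribosomal proteins, elongation factor 1-beta, 2 mitochondrial ribosomal proteins and 4E-BP2 in each of the 36 fish, by species (x axis); points are fish, open triangles the 6 H. flavolineatum with high vitellogenin, and red bars the mean ± SD. L15 is highest in H. flavolineatum, 4E-BP2 is lowest in H. macrostomum, and for P2 the triangles lie in the upper part of H. flavolineatum.

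The tRNA ligases did not pass the filter on low counts. Of 10 isogroups so named, 3 were members. Valine-tRNA ligase, isogroup20881, had 28, 72 and 52 counts in H. carbonarium, H. flavolineatum and H. macrostomum, and serine-tRNA ligase, isogroup17168, had 16, 43 and 43. Tyrosine-tRNA ligase, isogroup23281, had 4, 36 and 12 counts, 0.239 times as many per total count in H. carbonarium as in H. flavolineatum (95% interval 0.0618 to 0.667, counting error only, which leaves out the spread between fish). Tested without that filter, the 3 passed in no contrast, the largest log2 fold change being that of isogroup23281 for H. carbonarium against H. flavolineatum (−1.91, adjusted p = 0.0836, edgeR).

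Genes that act beside these factors but fall outside the naming rule, such as tRNA-modifying enzymes, ribosome biogenesis proteins and mitochondrial or specialised elongation factors, were followed as well. Of 37 such names, 21 isogroups had 10 or more counts and 9 were tested, 7 of which were in the study's list, so their calls are not independent evidence either. In H. carbonarium, 2 were higher and 2 lower than in H. flavolineatum, and 1 was higher and 1 lower than in H. macrostomum. Between H. flavolineatum and H. macrostomum 1 was higher and 2 were lower in H. flavolineatum. These were 4, 2 and 3 of 9, where 14.4, 13.5 and 26.0% of all isogroups were called. The largest difference was that of isogroup4445, a tRNA methyltransferase 1 homolog, with log2 fold changes of 4.01 ± 0.44 for H. carbonarium against H. flavolineatum (adjusted p = 2.85e-09) and 3.40 ± 0.48 against H. macrostomum (adjusted p = 7.76e-07). Isogroup5483, named as the ribosome biogenesis protein RLP24, was lower in H. carbonarium than in both, by −0.93 ± 0.23 (adjusted p = 0.00247) and −1.19 ± 0.25 (adjusted p = 0.000371). A further isogroup of that name, isogroup44473, had the opposite sign against both and did not pass. It gave 0.96 ± 0.46 for H. carbonarium against H. flavolineatum (adjusted p = 0.133, edgeR) and 0.38 ± 0.50 against H. macrostomum (adjusted p = 0.641). The elongation factor that inserts selenocysteine, isogroup1119, gave −1.53 ± 0.30 for H. flavolineatum against H. macrostomum (adjusted p = 7.45e-05), and mitochondrial elongation factor Tu, isogroup592, gave −0.71 ± 0.21 (adjusted p = 0.0068).

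Within H. flavolineatum, no member separated the 6 fish with high vitellogenin from the other 11. Levels did not overlap between these fish for 0 of 29 members, against 0.628% of all isogroups tested (54 of 8598). The median log2 ratio of the medians, high over other, was 0.15 for the members, with 16 of 29 positive, and −0.02 for all isogroups. The liver marker sum, mostly apolipoprotein A-I and hemopexin, was 9122 to 31530 CPM in the fish with high vitellogenin and 22130 to 39110 CPM in the others. In the same order the pancreas marker sum was 3638 to 11630 and 1832 to 16050 CPM, and the lymphocyte and blood cell marker sum 318 to 577 and 370 to 1209 CPM. The part of these in the values that follow was not tested.

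The members nearest to a separation are named here after their values were seen. The 4E-BP3-like isogroup2514 was at 165 to 471 CPM in the fish with high vitellogenin (median 268) and at 43.3 to 181 CPM in the others (median 84.0), a ratio of medians of 3.18. Of the 6 fish, 5 lay above all others, and of the 11 others only fish 6 reached into the upper range. Without fish 6, or without fish 3 among the 6, the ranges of this member no longer overlapped, as for 59 and 78 of all 8598 isogroups. The isogroup named 4E-BP3, isogroup31884, was at 1.62 to 29.8 CPM (median 6.97) against 0 to 3.62 CPM (median 1.35), with 4 of the 6 above all others. It had only 84 counts in the 17 H. flavolineatum. With these 6 fish left out it did not pass the filter on low counts. It was thus among the tested members through the fish in which it was high, and its values are no support for a difference. Protein P2, isogroup20825, was at 590 to 779 CPM (median 644) against 284 to 624 CPM (median 391), and 10 of the 11 others lay below all 6. Without fish 4 its ranges did not overlap, as for 59 of all 8598 isogroups. For P2 and 4E-BP3-like the fish left out were picked as those whose values overlapped, so the ranges had to separate. The counts over all isogroups left out the same fish for each isogroup, so they are no background for that choice.

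**Figure D5:**
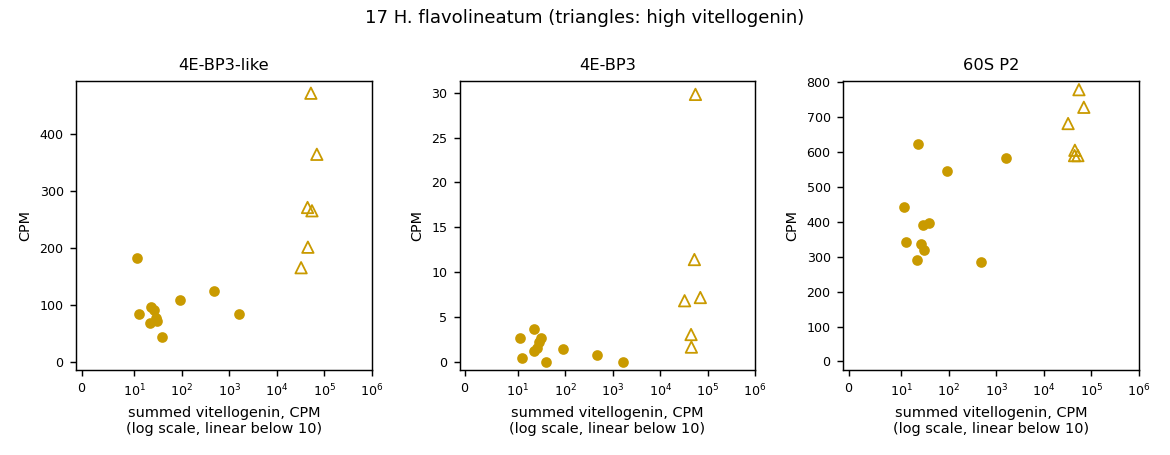
Levels of 4E-BP3-like, 4E-BP3 and 60S P2 (y axes, CPM, linear) against summed vitellogenin (x axis, CPM, log scale that is linear below 10) in the 17 H. flavolineatum; open triangles are the 6 fish above 10000 CPM of vitellogenin. For 4E-BP3-like the triangles lie at 165 to 471 CPM and the other 11 fish at 43.3 to 181 CPM. 4E-BP3 did not pass the filter on low counts with the 6 fish left out.

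Other members spread widely among the fish with high vitellogenin. Elongation factor 1-beta, isogroup6248, was at 386 to 1743 CPM (median 1326) against 746 to 1845 CPM (median 1139), and L30, isogroup18099, at 308 to 1665 CPM (median 1020) against 762 to 1461 CPM (median 1017). In both the lowest value was that of fish 12. The eIF2 subunit 1 isogroup3602 was at 5.59 to 38.3 CPM (median 19.9) against 15.7 to 30.5 CPM (median 23.5), and eIF3 subunit L, isogroup9892, at 37.3 to 178 CPM (median 135) against 123 to 155 CPM (median 139). For these factors the fish with high vitellogenin held both the lowest and the highest values of the species. Factor eIF5A2, isogroup1783, was at 76.4 to 105 CPM (median 88.6) against 54.9 to 87.0 CPM (median 66.0), with 3 of the 6 above all others. The calls between species for eIF2 subunit 1, eIF3 subunit L and L15 also passed the threshold with these 6 fish left out, while that of elongation factor 1-beta for H. carbonarium against H. flavolineatum did not (−0.65, adjusted p = 0.0108). Of the 17 calls in the 3 contrasts, it was the only one lost in that setting.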

How the data were processed

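Liver TagSeq libraries of 36 wild fish, 1 per fish, were analysed. The authors removed low-quality reads and PCR duplicates, mapped tags with Bowtie2 to the H. macrostomum transcriptome, searching up to 5 matches per tag, and deposited raw counts per isogroup, unscaled. From these counts edgeR 4.0.16 (R 4.3.3) fitted a quasi-likelihood model to all 36 fish with species as factor, TMM scaling and filterByExpr (minimum count 10), which left 8598 isogroups. P-values were adjusted by Benjamini-Hochberg over all of them, and a call needed an adjusted p under 0.01. CPM are TMM-scaled and log2 fold changes are positive where the species named first is higher. Tested on simulated counts, it recovered most large changes and few of the smallest simulated. Fish totals ranged from 578011 to 3252882 counts, and intervals cover counting error only. No pair of libraries of the same species agreed within sampling noise (chi-square per degree of freedom of at least 7.55). Fish of a species came from separate animals. Fish were grouped by the species in the labels. High vitellogenin means above 10000 CPM, as the labels give no such group, and those fish were described without a test. The members, gene lists and rules were chosen with earlier results of these data known. Named members are the 3 given at the outset (eIF3 subunit L, eIF2 subunit 1, mitochondrial L19), up to 8 called per contrast with the smallest p, per role the one with the highest mean and the one with the smallest p, and up to 8 separating high from other vitellogenin. Members and other genes named beyond this rule were chosen after their values were seen, as were those of the wider list. Alternatives covered DESeq2 1.42.0, scaling, filters, thresholds, left-out fish, a block on fish number, summed isogroups and annotation. Correlations used 100000 random permutations in each species (SciPy 1.17.1), with Pearson's r taken on log2 CPM. No sequences or genome positions were used. The authors' own p-values and fold changes were not used.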

Additional observations from a re-analysis of the deposited data

Results flagged for a closer look

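Of 15 named members examined in the 8 H. carbonarium, 1 had a fish far from the others. The 60S acidic ribosomal protein P2 was at 1618 CPM in fish 4, and between 544 and 949 CPM in the other 7, a gap of 0.623 of the whole range, beyond the 95% limit of Dixon's test for 8 values. Chance alone sets about 1 group in 20 apart in this way. Species with 11 or 17 fish were not examined by this criterion.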

How the results depend on the processing

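Of the 17 calls of members in the 3 contrasts, 13 kept their direction and stayed past the threshold in all 46 alternatives run on each, and none changed direction. The other 4 fell short in some: elongation factor 1-beta in H. carbonarium against H. flavolineatum (34 alternatives, adjusted p up to 0.0385), P2 in the same contrast (12, up to 0.0497), 4E-BP3-like in H. flavolineatum against H. macrostomum (15, up to 0.0175) and eIF4G 1 there (1, the replicate block, adjusted p 0.012). Most of the 46 left out a single fish, and 1 was the looser threshold of 0.05, which a call cannot fail. Summed isogroups and names from the annotation tables only were not among the 46. With those names the called isogroups of eIF2 subunit 1, eIF3 subunits L and Jb, eIF1A, 4E-BP2 and elongation factor 1-beta were not members. At an adjusted p under 0.05, 7 of 29 members were called between H. carbonarium and H. flavolineatum, where 23.3% of all 8598 isogroups were. Between H. carbonarium and H. macrostomum 8 were called (22.5% of all isogroups), and between H. flavolineatum and H. macrostomum 14. DESeq2 without a count filter called 6, 8 and 13 of 46 members, where 4.0, 3.9 and 7.6% of all 58532 isogroups were called. All members hold 10 or more counts by rule, but only 36603 of the 58532 isogroups do. The bases are therefore unlike, and no excess among the members can be read from these shares. DESeq2 gave no adjusted p for 5, 5 and 4 of the 46. With names from the annotation tables only, H. carbonarium against H. macrostomum gave 2, H. flavolineatum against H. macrostomum 4 and the test over 3 species 4 of 17. Of all isogroups, 13.5, 26.0 and 32.6% were called there. Leaving out 1 fish gave 1 to 5 members between H. carbonarium and H. flavolineatum, 5 to 7 between H. carbonarium and H. macrostomum, 8 to 11 between H. flavolineatum and H. macrostomum and 10 to 11 over 3 species. In the first of these, 1 was left without H. carbonarium 2, 3, 4 or 5 or without H. flavolineatum 6 or 9, and 5 were called without H. flavolineatum 12. Shares over all isogroups are not given for the left-out fish or for the 14 called at 0.05, so these counts are not read as a trait of the members. The members separating high from other vitellogenin numbered 2 of 29 with library sizes only (eIF3 subunits L and M, both lower with high vitellogenin). In that setting 234 of all 8598 isogroups did not overlap, against 54 with TMM scaling. With a fish left out they numbered 0 to 1, and 1 without fish 3, 4 or 6, where 78, 59 and 59 of all 8598 did not overlap. Over all isogroups, 1238 calls between H. carbonarium and H. flavolineatum became 2353 without a filter, 2002 at 0.05, 720 with the block and 2345 with DESeq2. Between H. carbonarium and H. macrostomum 1160 became 2597 without a filter, 1933 at 0.05 and 2263 with DESeq2, between H. flavolineatum and H. macrostomum 2233 became 5617 and 4437 without a filter and with DESeq2, and over 3 species 2800 became 7221 and 6138.

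Fish of different species share numbers in the labels. Deviations from the species means correlated between −0.142 and 0.289 over 25 same-number pairs, with 1 pair over 0.1. These values cannot tell whether fish of the same number shared a collection day or dive, which the labels do not give. With the fish number as a replicate block, 2, 5, 8 and 10 of 29 members were called in the 3 contrasts and over 3 species. In the first contrast, H. carbonarium against H. flavolineatum, 8.4% of all 8598 isogroups were called with the block and 14.4% without it. Shares over all isogroups for the other block results are not given here. Depth limits what could be seen: 17 of 46 members, with at most 232 counts over all fish, did not pass the filter on low counts. The cause of these changes was not tested.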
